A study of Homo sapiens with 14 samples.

Results

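The levels of 8 complement genes were followed through 14 RNA-seq libraries of 2 neutrophil-like cell lines. They were 4 membrane regulators (CR1, CD46, CD55 and CD59), 3 soluble proteins of the alternative pathway (CFP, CFD and C3) and 1 receptor (C3AR1). They were chosen by name, with earlier results of these data known. Their rows are those of the table that carry 1 of these 8 symbols and an NCBI gene ID. All 8 had 1 such row each, among 60707 rows in all and 37466 with an NCBI gene ID. All 8 passed the filter on low values, which asked for a normalized FPKM of 1 or more in 2 or more of the 12 libraries with a replicate.

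The libraries came from HL-60 and PLB-985, leukemia lines of human myeloid origin that become neutrophil-like in dimethyl sulfoxide (DMSO). PLB-985 was derived from HL-60, and here it carried an H2B-mCherry reporter, which the HL-60 cells did not, so that a difference between the lines and one of the reporter cannot be told apart. In each line there were undifferentiated cells in medium with 9% fetal bovine serum (FBS), cells after 6 days with 1.3% DMSO in 9% FBS (called DMSO), and cells after 6 days with 1.3% DMSO, 2% Nutridoma-CS, a serum substitute, and 0.5% FBS (called DMSO+Nutridoma). Both protocols contained DMSO, and they differed both in the supplement and in the amount of serum. These 6 groups had 2 replicates each, and single PLB-985 libraries of DMSO+Nutridoma cultures, from day 2 and day 4, entered no test. The study states that the experiment was repeated on separate days. The shift that the groups shared between these 2 repeats was removed, and the p-values measure only the spread left between them.

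Complement is a cascade of plasma proteins that tags particles for phagocytes and can punch pores in membranes. C3 is its central component. The alternative pathway keeps C3 turning over with the help of factor D (CFD), the serine protease that cuts factor B, and of properdin (CFP), which steadies the enzyme that cuts C3 and is stored by neutrophils. Cells carry regulators against their own complement. CD55 speeds the decay of the enzymes that cut C3, CD46 helps factor I to cut C3b and C4b, CD59 blocks the membrane pore, and CR1 binds C3b and C4b, acting as a regulator and as a phagocytic receptor of neutrophils. C3AR1 is the receptor for the small fragment C3a.

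The 4 membrane regulators include 3 neighbours on the long arm of chromosome 1 in the GENCODE 44 annotation of GRCh38. CD55 lies at chr1:207321519-207386804, CR1 at chr1:207496147-207641765 and CD46 at chr1:207752037-207795513, all on the forward strand. Between them lie CR2, at 0 to 0.00908 normalized FPKM over the 14 libraries, and CR1L, a gene much like CR1, at 0.0722 to 27.3. On their sides lie C4BPA, at 0 to 0.143, and C4BPB and CD34, both listed at 0 in all 14 libraries. These neighbours were picked for their position. CD59 lies on chromosome 11 (33703010 to 33736479, reverse strand), C3AR1 on chromosome 12 (8056844 to 8066359, reverse strand), and CFP on chromosome X (47623172 to 47630305, reverse strand). Chromosome 19 holds CFD (859453 to 867884, forward strand) and C3 (6677704 to 6730562, reverse strand).

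CR1 and CFP had the largest increases with differentiation among the 8 genes, and C3AR1 was the only member called lower with DMSO. The 250 bases before the RefSeq start of these 3 genes are shown here from RefSeq on GRCh38.p14, 5′ to 3′ on the strand of the gene, for chr1:207495907-207496156 (CR1, forward), chrX:47630306-47630555 (CFP, reverse) and chr12:8066360-8066609 (C3AR1, reverse). Capitals mark matches to 3 short motifs, searched on both strands.
CR1: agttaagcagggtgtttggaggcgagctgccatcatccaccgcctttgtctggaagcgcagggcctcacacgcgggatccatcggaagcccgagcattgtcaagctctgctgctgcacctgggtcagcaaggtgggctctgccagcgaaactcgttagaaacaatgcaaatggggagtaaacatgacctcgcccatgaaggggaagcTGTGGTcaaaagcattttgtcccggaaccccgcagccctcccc
CFP: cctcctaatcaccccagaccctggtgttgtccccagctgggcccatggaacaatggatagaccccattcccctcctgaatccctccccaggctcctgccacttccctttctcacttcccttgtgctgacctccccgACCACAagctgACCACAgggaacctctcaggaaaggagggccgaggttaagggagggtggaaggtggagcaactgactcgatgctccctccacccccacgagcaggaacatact
C3AR1: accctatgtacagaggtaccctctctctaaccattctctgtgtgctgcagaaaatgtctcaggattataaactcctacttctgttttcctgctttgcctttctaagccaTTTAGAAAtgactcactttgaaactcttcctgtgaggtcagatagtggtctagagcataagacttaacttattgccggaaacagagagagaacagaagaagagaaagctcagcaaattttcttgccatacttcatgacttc

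The motifs were TGTGGT, the core bound by RUNX factors, GAGGAA, a core bound by PU.1, and TTNNGNAA, the frame bound by C/EBP factors, in which N is any base. RUNX, PU.1 and C/EBP factors are regulators of myeloid genes. Of the 8 genes, 7 had an entry in the promoter table, and C3 had none. TGTGGT was found in 3 of these 7 windows, with 1 match in CR1, 2 in CFP (as ACCACA, the reverse complement) and 1 in CD55, and in 10.9% of the 27305 promoters of the same length. TTNNGNAA was found in 1 of 7, that of C3AR1, and in 33.6% of all promoters. GAGGAA was found in 0 of 7 and in 23.4% of all promoters. No match overlapped another. By the GENCODE starts, the windows of CR1 and CD55 reach 10 and 159 bases into the gene, and the CD55 match lies inside it. A match describes letters and not a bound site.

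**Figure D1:**
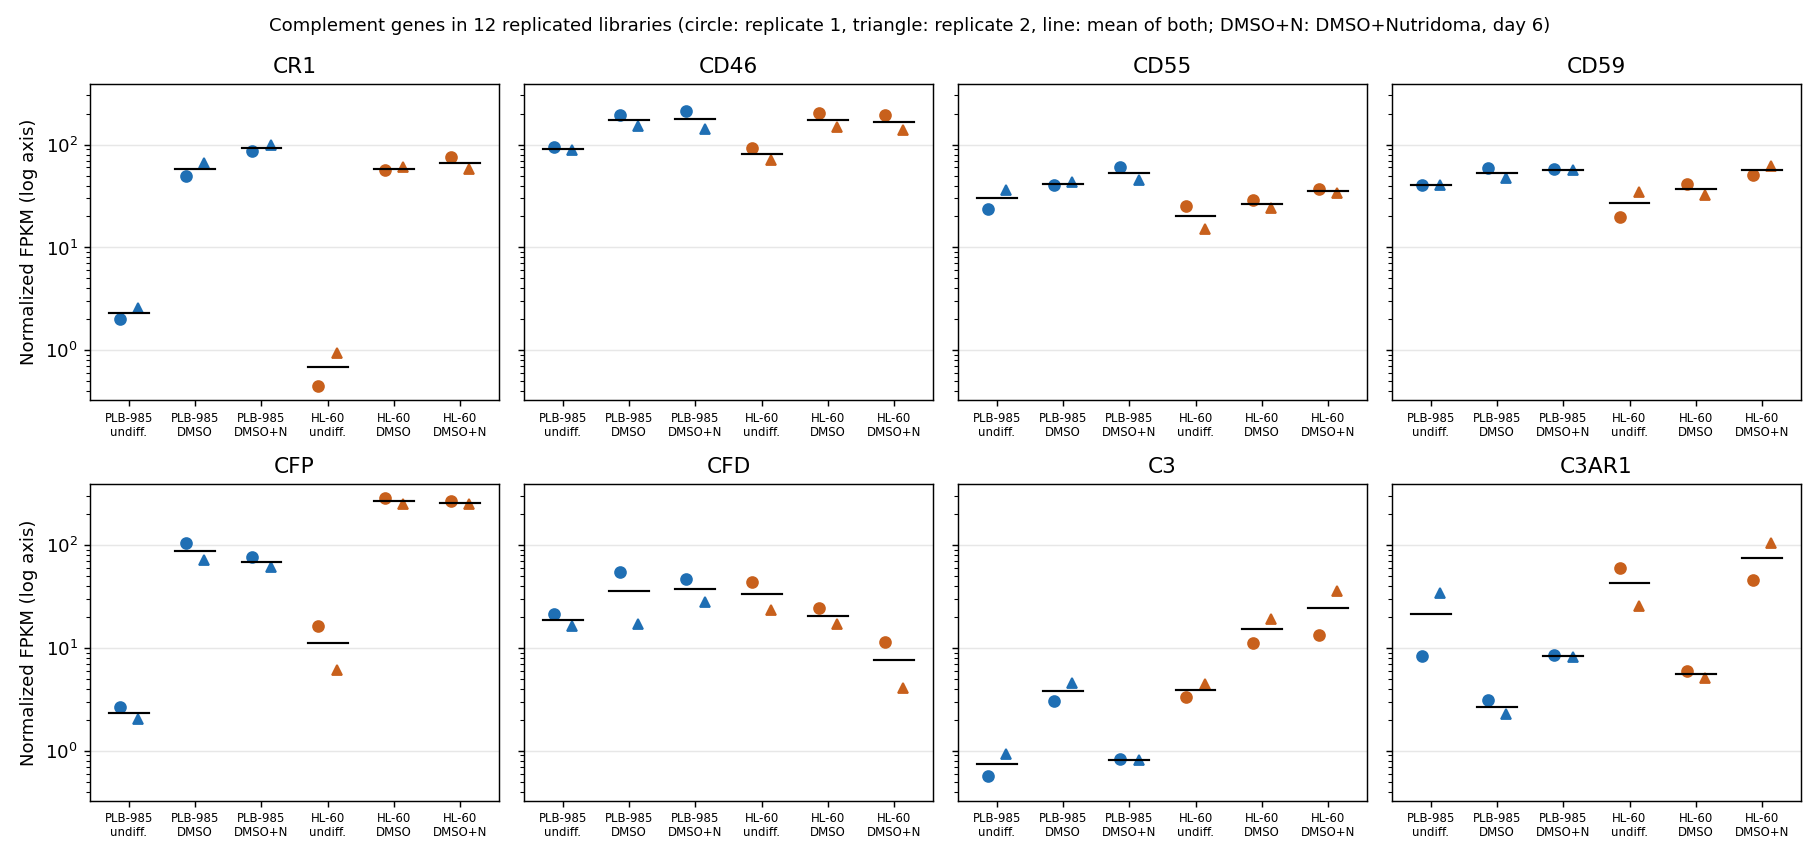
Normalized FPKM (log axis) of the 8 complement genes in the 12 replicated libraries, with PLB-985 in blue and HL-60 in orange, circles for replicate 1, triangles for replicate 2 and a line at the mean of both. CR1 lay between 0.452 and 2.60 in the undifferentiated libraries and between 49.4 and 99.6 on day 6, whereas C3AR1 was lowest with DMSO, at 2.28 to 5.92.

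Levels are given as normalized FPKM, a measure scaled by transcript length, so that genes can be set beside each other. Fold changes and standard errors (SE) are those of log2(normalized FPKM + 1), which understates the change of genes at low levels, and a gene was called where limma's adjusted p was under 0.05 over all 13778 rows tested. The study states a least number of reads per sample, but the tables give no counts, so the reads behind each value are unknown and no limit of detection is given. In bulk samples, fewer cells of a type and less RNA per cell cannot be told apart. Undifferentiated cells were high in markers of immature granulocytic cells (MPO, ELANE, AZU1, PRTN3 and CTSG summed to 2699 to 6522 against 18.8 to 729 on day 6), and day 6 cells in those of neutrophil differentiation (361 to 626 against 11811 to 20788 for 8 genes). Markers of erythroid cells and megakaryocytes and of epithelial cells and fibroblasts had no gene at 1 or above in any group. The 10 lymphocyte markers summed to 12.2 to 24.1 in undifferentiated cells and 1.44 to 7.73 on day 6. The 15 markers of eosinophils, basophils and mast cells summed to 686 to 801 in undifferentiated PLB-985, 114 to 145 with DMSO and 190 to 270 with DMSO+Nutridoma, and in HL-60 to 53.8 to 559, 57.6 to 77.6 and 13.8 to 51.5. The share of FPKM from mitochondrial genes was also higher on day 6 than in undifferentiated cells of the same line and replicate, going in PLB-985 with DMSO from 2.60 to 5.30% in replicate 1 and from 5.84 to 12.6% in replicate 2, and in HL-60 from 5.30 to 7.19% and from 7.02 to 14.2%. With DMSO+Nutridoma it was 5.38 and 10.1% in PLB-985 and 7.66 and 12.6% in HL-60. The part of these cell types and of this share in the changes of the 8 genes was not tested.

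With DMSO for 6 days, 4 of the 8 genes were called higher in PLB-985 cells and 1 lower, and the same counts were found in HL-60 cells. Of all genes tested, 24.6% were called higher and 35.8% lower in PLB-985, and 26% higher and 34.7% lower in HL-60. With DMSO+Nutridoma, 5 of 8 were called higher and 0 lower in PLB-985, where 24% of all genes were called higher and 35.8% lower. In HL-60 cells with DMSO+Nutridoma, 6 of 8 were called higher and 1 lower, against 25.5% and 33.6% of all genes. The median log2 change of the 8 genes was 0.80, 0.87, 0.77 and 1.04 in these 4 comparisons, while that of all genes tested was -0.15, -0.16, -0.11 and -0.12. Each line's 2 comparisons share the undifferentiated libraries.

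**Figure D2:**
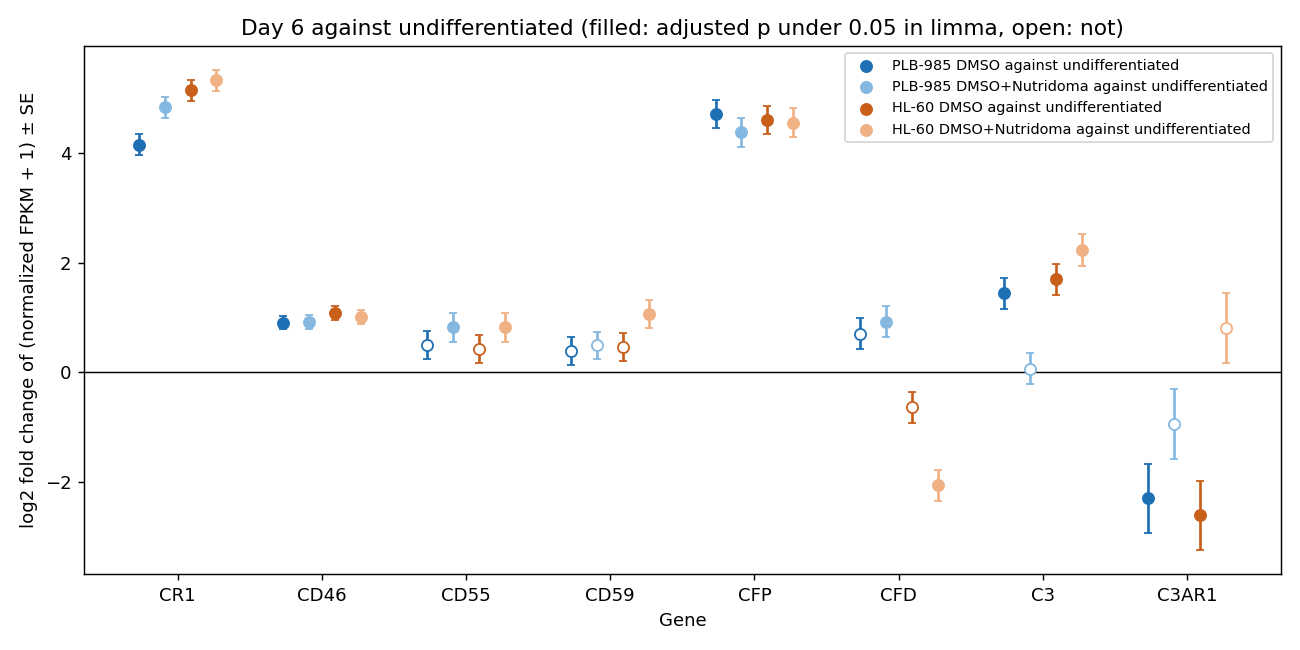
Log2 fold change of (normalized FPKM + 1) on day 6 against undifferentiated cells of the same line, with its SE, for the 8 genes in the 4 differentiation comparisons. Filled points passed an adjusted p of 0.05 and open points did not. CR1 and CFP lay between 4.15 and 5.32, CD46 between 0.90 and 1.08, and C3AR1 at -2.30 and -2.61 with DMSO.

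CR1, the receptor for C3b and C4b, had the largest change of the membrane regulators. In undifferentiated PLB-985 cells it was at 2.01 and 2.60 normalized FPKM in replicates 1 and 2, with DMSO at 49.4 and 66.7, and with DMSO+Nutridoma at 86.3 and 99.6. In undifferentiated HL-60 cells it was at 0.452 and 0.941, with DMSO at 56.4 and 59.9, and with DMSO+Nutridoma at 75.6 and 57.8. Every day 6 library lay above every undifferentiated library. Within a replicate, CR1 was 24.6 to 43.0 times higher on day 6 than undifferentiated in PLB-985 and 61.4 to 167 times in HL-60. CR1 rose by a log2 of 4.15 with DMSO (adjusted p = 5.23e-06) and 4.83 with DMSO+Nutridoma (3.85e-06) in PLB-985, and by 5.14 (3.8e-06) and 5.32 (1.63e-06) in HL-60, each with an SE of 0.19. These 4 calls held in every setting tried and with any library left out. In the order of the 6 groups, undifferentiated HL-60 was lowest, undifferentiated PLB-985 next and DMSO+Nutridoma PLB-985 highest, while the 3 other groups overlapped their neighbours between 49.4 and 75.6.

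CR1 and CR1L share sequence, and Cufflinks divides reads that match both, so that the split between them is uncertain. CR1L was at 30.4 to 34.1% of the CR1 level in the day 6 libraries of replicate 1 and at 2.70 to 3.23% in those of replicate 2. The sum of CR1 and CR1L was 25.6 to 130 times higher on day 6 than undifferentiated within a line and replicate, a range near that of CR1 alone.

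CD46, the cofactor for factor I, was the most abundant of the 4 membrane regulators in all 14 libraries. It was at 94.1 and 88.5 in undifferentiated PLB-985, 193 and 152 with DMSO, and 212 and 142 with DMSO+Nutridoma. In HL-60 it was at 92.8 and 70.7, then 201 and 148, then 195 and 138. All 8 day 6 libraries lay above the 4 undifferentiated ones, and the 4 day 6 groups overlapped one another. CD46 rose by a log2 of 0.90 (adjusted p = 0.000444) and 0.92 (0.000421) in PLB-985 and of 1.08 (0.000181) and 1.01 (0.000275) in HL-60, with an SE of 0.13, and no setting or left-out library ended these calls. Within a replicate it was 1.60 to 2.25 times higher on day 6.

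CD55, the regulator that speeds decay of the C3-cutting enzymes, moved less. It was at 23.8 and 36.0 in undifferentiated PLB-985, 40.7 and 42.8 with DMSO, and 61.0 and 45.0 with DMSO+Nutridoma. The HL-60 levels were 25.2 and 15.1, then 28.8 and 24.4, then 36.8 and 33.6. The DMSO change was not called, at a log2 of 0.50 (SE 0.26, adjusted p = 0.135) in PLB-985 and 0.42 (SE 0.26, 0.195) in HL-60. The DMSO+Nutridoma change was called in both, at 0.82 (SE 0.26, 0.0265) and 0.82 (SE 0.26, 0.0271). These 2 calls were lost without the filter on low values (0.0821 and 0.0817). The PLB-985 call was also lost without undifferentiated replicate 1, where the log2 change was 0.39 (adjusted p = 0.217), and without DMSO+Nutridoma replicate 1 (0.64, 0.163). The HL-60 call was lost without undifferentiated replicate 2 (0.48, 0.192) and without either DMSO+Nutridoma replicate (0.0876 and 0.0896). With undifferentiated PLB-985 replicate 2 left out, the DMSO change was 0.93 and passed (0.015).

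CD59, which blocks the membrane attack pore, was at 40.9 and 40.1 in undifferentiated PLB-985, 59.4 and 47.4 with DMSO, and 57.6 and 56.7 with DMSO+Nutridoma. The HL-60 levels were 19.6 and 34.9, then 41.1 and 32.2, then 51.0 and 61.4. It was called in 1 of the 4 comparisons, HL-60 with DMSO+Nutridoma, where it rose by a log2 of 1.06 (SE 0.25, adjusted p = 0.00731), a call that held in every setting and with any library left out. The other changes were 0.38 (0.225), 0.49 (0.132) and 0.46 (0.151), each with an SE of 0.25. The HL-60 DMSO change was 0.90 (0.00791) without undifferentiated HL-60 replicate 2 and 0.01 (0.962) without undifferentiated HL-60 replicate 1, since those libraries differed by 1.78 times. With PLB-985 libraries alone, CD59 also passed with DMSO (0.0256) and with DMSO+Nutridoma (0.0115), the latter also without either undifferentiated HL-60 library (0.0287 and 0.0295). Whether the HL-60 change with DMSO+Nutridoma differed from that of PLB-985 was tested, and the difference of -0.58 did not pass (SE 0.36, adjusted p = 0.398).

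CD55 and CD59 are both held in the membrane by a glycosylphosphatidylinositol (GPI) anchor. Of 28 genes listed for the synthesis and remodelling of that anchor, 27 were tested. In PLB-985 given DMSO, 3 were called higher and 14 lower, where 24.6% of all genes were called higher and 35.8% lower. The counts of higher and lower calls were 2 and 9 with DMSO+Nutridoma in PLB-985, 3 and 9 with DMSO in HL-60 and 1 and 10 with DMSO+Nutridoma in HL-60. In these 3 comparisons the share called lower was near that of all genes (35.8%, 34.7% and 33.6%). The share called higher was below that of all genes (24%, 26% and 25.5%). The median log2 change of the list was -0.397, -0.313, -0.205 and -0.259 in the 4 comparisons, against -0.15, -0.16, -0.11 and -0.12 over all genes. PIGW, an acyltransferase of the pathway, fell by 2.43 (SE 0.18, adjusted p = 2.11e-05) and PIGU, a subunit of the transamidase that attaches the anchor, by 2.01 (SE 0.20, 9.12e-05) on the log2 scale with DMSO in PLB-985. The largest increases in that comparison were those of PGAP3, which remodels the lipid of the anchor (0.79, SE 0.20, 0.01), and PIGX, a subunit of the first mannosyltransferase (0.49, SE 0.14, 0.0144). The call of PGAP3 was lost without undifferentiated PLB-985 replicate 1 (0.0733) and DMSO replicate 2 (0.0877), and without the term for the replicate (0.17). That of PIGX was lost without undifferentiated replicate 1 (0.0753) or 2 (0.0583) and DMSO replicate 2 (0.101).

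CFP, properdin, rose in all 4 comparisons and had higher levels in HL-60 than in PLB-985. It was at 2.66 and 2.03 in undifferentiated PLB-985, 105 and 70.9 with DMSO, and 75.6 and 61.4 with DMSO+Nutridoma. In HL-60 it was at 16.3 and 6.07, then 283 and 252, then 266 and 251. No undifferentiated library overlapped a day 6 one. CFP rose by a log2 of 4.71 (adjusted p = 7.94e-06) and 4.38 (1.23e-05) in PLB-985 and of 4.60 (9.47e-06) and 4.55 (8.64e-06) in HL-60, with an SE of 0.26, and these calls held in every setting tried. Within a replicate it was 16.3 to 41.5 times higher on day 6. On day 6, 99.2 to 99.4% of the rows with an NCBI gene ID had a lower mean level than CFP in HL-60, and 97.1 to 97.9% in PLB-985.

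CFD, the protease factor D, took opposite signs in the 2 lines. It was at 21.3 and 16.2 in undifferentiated PLB-985, 55.0 and 16.99 with DMSO, and 47.0 and 27.7 with DMSO+Nutridoma. In HL-60 it was at 43.9 and 23.4, then 24.2 and 16.9, then 11.3 and 4.11. Both HL-60 libraries with DMSO+Nutridoma were lower than every other library for this gene. There CFD fell by 2.06 on the log2 scale (SE 0.28, adjusted p = 0.000447), which held in every setting and with any library left out, and in PLB-985 it rose by 0.92 (SE 0.28, 0.0223). The PLB-985 call was lost without the replicate term (0.272), without the filter (0.0725), and without undifferentiated replicate 1 (0.61, 0.174), DMSO+Nutridoma replicate 1 (0.0656) or DMSO+Nutridoma replicate 2 (0.111). With DMSO alone the changes were 0.70 (SE 0.28, 0.0626) in PLB-985 and -0.64 (SE 0.28, 0.0818) in HL-60 and did not pass. The 2 PLB-985 DMSO libraries differed by 3.23 times, and without replicate 2 the change was 1.141 and passed (0.013). It also passed without undifferentiated replicate 2 (1.01, 0.0388) and under both other scalings (0.0387 and 0.0305). The HL-60 DMSO change passed without either PLB-985 DMSO library (0.0363 and 0.0364).

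C3, the central component, stayed below 5 normalized FPKM in 6-day PLB-985 cultures and reached 35.7 in HL-60. It was at 0.568 and 0.930 in undifferentiated PLB-985, 3.03 and 4.51 with DMSO, and 0.831 and 0.808 with DMSO+Nutridoma. In HL-60 it was at 3.30 and 4.50, then 11.2 and 19.3, then 13.3 and 35.7. C3 rose with DMSO by a log2 of 1.44 (SE 0.29, adjusted p = 0.00304) in PLB-985 and 1.69 (SE 0.29, 0.00131) in HL-60. With DMSO+Nutridoma it rose by 2.23 in HL-60 (SE 0.29, 0.000328), while the PLB-985 change was 0.07 (SE 0.29, 0.867), with both libraries inside the range of the undifferentiated ones. The 3 calls held in every setting and with any library left out.

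C3AR1, the C3a receptor, had the largest single ratio between replicates of any member, 4.10 in undifferentiated PLB-985. In every day 6 group the ratio of CFD was larger than that of C3AR1. C3AR1 was at 8.31 and 34.1 in undifferentiated PLB-985, 3.09 and 2.28 with DMSO, and 8.55 and 8.17 with DMSO+Nutridoma. Its HL-60 levels were 59.4 and 25.3, then 5.92 and 5.14, then 45.9 and 103. The DMSO libraries of each line were below its undifferentiated libraries. C3AR1 fell with DMSO by 2.30 on the log2 scale in PLB-985 (SE 0.64, adjusted p = 0.0141) and by 2.61 in HL-60 (SE 0.64, 0.00787). The PLB-985 call was lost without the filter (0.0564), without undifferentiated replicate 2 (-1.29, 0.106) and without DMSO replicate 2 (0.0941). The HL-60 call was lost without undifferentiated replicate 1 (-1.76, 0.0635) and without DMSO replicate 2 (0.0557). With DMSO+Nutridoma the changes were -0.95 (SE 0.64, 0.228) in PLB-985 and 0.81 (SE 0.64, 0.299) in HL-60. The former reached -1.97 and passed without undifferentiated PLB-985 replicate 1 (0.0298).

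DMSO+Nutridoma was next set against DMSO on day 6, the comparison of the 2 protocols. In PLB-985, 0 of the 8 genes were called, and 1.05% of all genes were (limma). C3 had the smallest unadjusted p of the 8 in this comparison, with a log2 change of -1.37 (SE 0.29, adjusted p = 0.0796), being at 0.831 and 0.808 against 3.03 and 4.51. It passed with FPKM not scaled by the uniform genes (0.0319), with an added constant of 0.1 (0.0221) or 0.5 (0.0432), with PLB-985 libraries alone (0.0298), and without either HL-60 DMSO+Nutridoma library (0.0149 and 0.0158). CR1 was 1.75 and 1.49 times higher with DMSO+Nutridoma in replicates 1 and 2, and its change of 0.68 (SE 0.19, 0.16) passed with PLB-985 libraries alone (0.0406) and without either HL-60 DMSO+Nutridoma library (0.0362 and 0.037).

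In HL-60, 2 of the 8 genes were called between the protocols, 1 higher and 1 lower, and 16.5% of all genes were called. C3AR1 was 7.75 and 20.1 times higher with DMSO+Nutridoma in replicates 1 and 2, a log2 change of 3.42 (SE 0.64, adjusted p = 0.0133). This call was lost without the filter (0.0519) and without DMSO replicate 1 (0.0599), DMSO replicate 2 (0.12) or DMSO+Nutridoma replicate 2 (0.0959). CFD was lower, with a log2 change of -1.42 (SE 0.28, 0.0168), which was lost without the replicate term (0.228), without the filter (0.0564), with HL-60 libraries alone (0.0516), and without DMSO replicate 2 (0.153) or DMSO+Nutridoma replicate 2 (0.114). CD59 and C3, at 0.61 (SE 0.25, 0.139) and 0.54 (SE 0.29, 0.233), passed with 1 library left out, CD59 without either undifferentiated HL-60 library (0.0367 and 0.0379) and C3 without DMSO+Nutridoma replicate 1 (1.04, 0.0206).

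Markers of monocytes and macrophages were highest in the group where C3 and C3AR1 were highest and CFD lowest, HL-60 with DMSO+Nutridoma. The 15 genes listed summed to 94.4 to 105 in undifferentiated PLB-985, 433 to 474 with DMSO and 790 to 881 with DMSO+Nutridoma, and to 159 to 231, 841 to 863 and 1550 to 1869 in HL-60. In HL-60 with DMSO+Nutridoma 11 of the 15 reached 1, led by LYZ at 728 and 575 and CD14 at 518 and 376, whereas MRC1 stayed at 0.122 and 0.233 and MARCO at 0.120 and 0.0375. MRC1 was listed at 0 in all 8 PLB-985 libraries. In PLB-985 with DMSO+Nutridoma CD14 was at 18.5 and 23.2, and the list summed to 790 to 881. C3 was not called against undifferentiated cells there, and it was called higher in HL-60 with DMSO, where the list summed to 841 to 863. The part of these cells in the levels of C3, C3AR1 and CFD was not tested. Of 8 hepatocyte markers, fixed because the liver is the main source of plasma C3, SERPINA1 alone reached 1 in any group, at 712 and 898 in HL-60 with DMSO+Nutridoma, and this gene is also expressed by myeloid cells.

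The lines were then compared in each state. In undifferentiated cells, 1 of the 8 genes was called higher in PLB-985 than in HL-60 and 2 lower, and 14.1% of all genes were called in either direction. CFP was lower in PLB-985 by 1.73 on the log2 scale (SE 0.26, adjusted p = 0.00425), a call that held in every setting. C3 was lower (-1.48, SE 0.29, 0.0126) and CR1 higher (0.97, SE 0.19, 0.0132). The C3 call was lost without the replicate term (0.0877) and without undifferentiated PLB-985 replicate 1 (0.0584) or 2 (0.102) or undifferentiated HL-60 replicate 1 (0.0635). The CR1 call was lost without undifferentiated PLB-985 replicate 1 (0.0695) or 2 (0.1) or undifferentiated HL-60 replicate 1 (0.0668). CD59 passed without undifferentiated HL-60 replicate 2 (1.05, 0.0194), and CFD with undifferentiated libraries alone (-0.76, 0.0367).

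With DMSO, 2 of the 8 genes were called, both lower in PLB-985, against 10.4% of all genes. They were CFP (-1.62, SE 0.26, adjusted p = 0.00715) and C3 (-1.74, SE 0.29, 0.00803). Without the replicate term neither passed (0.0502 and 0.0632). Both calls were also lost without PLB-985 DMSO replicate 1 (0.0555 for CFP and 0.0618 for C3), without PLB-985 DMSO replicate 2 (0.0663 and 0.0694) and without HL-60 DMSO replicate 2 (0.0798 and 0.0832). With the DMSO libraries alone, 5 genes passed, which added CD55 (0.64, 0.00481), CD59 (0.53, 0.00375) and C3AR1 (-0.83, 0.00451). That fit had fewer residual degrees of freedom than the main one, and far more of all genes were called in it.

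With DMSO+Nutridoma, 4 of the 8 genes were called between the lines, 1 higher in PLB-985 and 3 lower, against 23.9% of all genes. C3 was lower in PLB-985 by 3.65 on the log2 scale (SE 0.29, adjusted p = 0.000194) and CFP by 1.91 (SE 0.26, 0.00232), and both calls held in every setting. CFD was higher by 2.23 (SE 0.28, 0.00165), which was lost without the replicate term (0.0541) and in no other setting. C3AR1 was lower (-2.90, SE 0.64, 0.0144), which was lost without the filter (0.0557) and without PLB-985 DMSO+Nutridoma replicate 1 (0.0673) or 2 (0.0926) or HL-60 DMSO+Nutridoma replicate 2 (0.103). CR1 passed without HL-60 DMSO+Nutridoma replicate 1 (0.81, 0.00848). CFP and C3 were thus called lower in PLB-985 in all 3 states, with the limits given for each call.

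Whether a gene responded differently in the 2 lines was tested as the difference between the responses. For DMSO, 0 of the 8 genes were called (limma), against 1.31% of all genes, and CR1, whose change was smaller by 0.99 in PLB-985 (SE 0.27, adjusted p = 0.162), passed without either HL-60 DMSO+Nutridoma library (0.0374 and 0.0378). For DMSO+Nutridoma, 2 of the 8 were called, against 4.2% of all genes. CFD differed by 2.98 (SE 0.40, 0.00818), having risen in PLB-985 and fallen in HL-60, and C3 by -2.17 (SE 0.41, 0.0286), having risen in HL-60 only. Without the replicate term neither passed (0.166 and 0.154). CFD passed with any library left out. C3 was lost without the filter (0.0753) and with any 1 of 9 of the 12 libraries left out, at adjusted p of 0.0508 to 0.129. The last contrast, called the effect of Nutridoma, was the change from DMSO to DMSO+Nutridoma, in which the supplement and the serum both differed. For it, 0 of the 8 were called different between the lines (limma), against 0.515% of all genes. C3 came to -1.91 (SE 0.41, 0.136) and CFD to 1.65 (SE 0.40, 0.185), and without HL-60 DMSO+Nutridoma replicate 1 C3 (-2.41, 0.00874) and CR1 (0.83, 0.0493) passed.

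**Figure D3:**
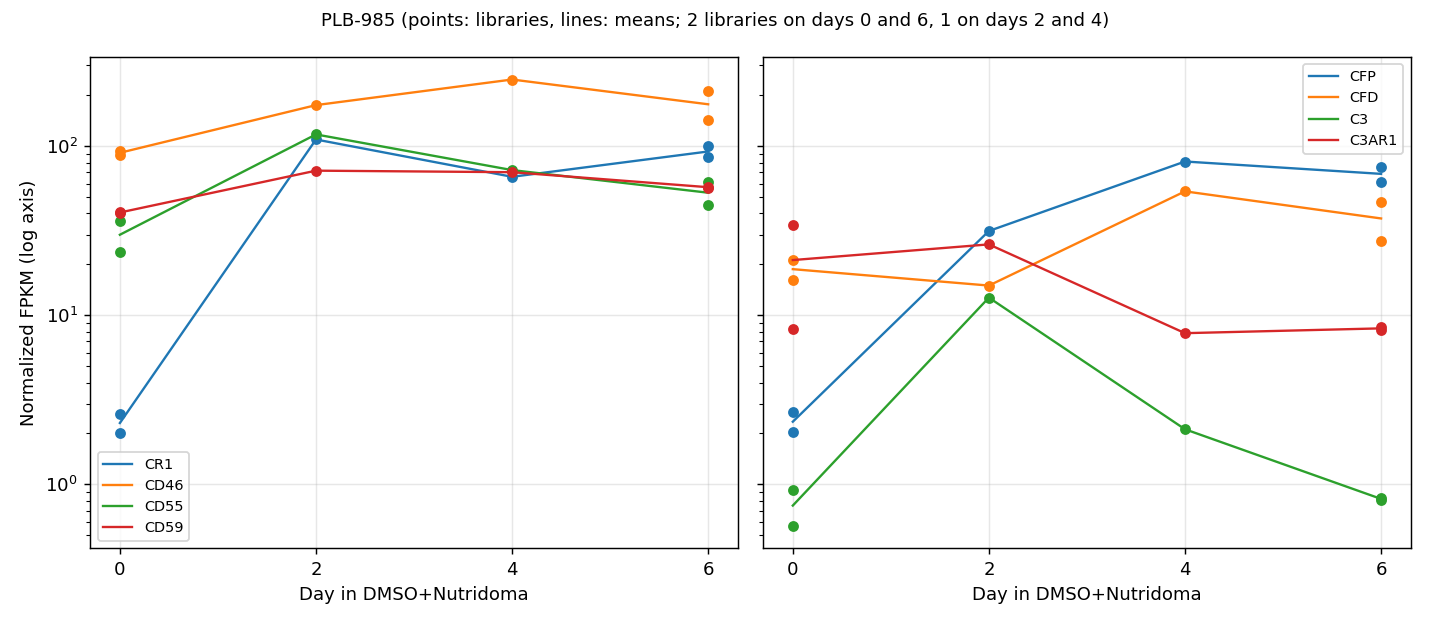
Normalized FPKM (log axis) of the 8 genes in PLB-985 on days 0, 2, 4 and 6 with DMSO+Nutridoma, with points for libraries and lines through the means, for 2 libraries on days 0 and 6 and 1 on days 2 and 4. C3 was at 12.7 on day 2 against 0.749 on day 0 and 0.820 on day 6, and CD55 was at 117 on day 2 against 29.9 and 53.0.

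The time points of PLB-985 with DMSO+Nutridoma placed the changes at different days. CR1 stood at 2.30 on day 0, 109 on day 2, 65.9 on day 4 and a mean of 93.0 on day 6. It was 47.5 times higher in the day 2 library than on day 0. CFP went from 2.35 to 31.5, 81.1 and 68.5 over days 0, 2, 4 and 6. CFD was at 14.97 on day 2, below both day 0 libraries, and at 54.0 on day 4. In every replicated group CFD was lower in replicate 2, at 0.309 to 0.761 times replicate 1. The part of such a difference in its day 2 and day 4 levels was not tested.

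C3, CD55, CR1 and CD59 had their highest PLB-985 levels in the day 2 library. For CR1 and CD59 the margin was small, at 109 against 99.6 on day 6 (replicate 2) and 71.6 against 70.1 on day 4. C3 was at 12.7 on day 2 and 2.12 on day 4, which is 16.97 and 2.83 times the day 0 mean, and on day 6 it was at 1.09 times that mean. CD55 was at 117 on day 2 and 72.2 on day 4, above all 12 replicated libraries, of which the highest was at 61.0. CD46 was at 175 and 248 on days 2 and 4, and CD59 at 71.6 and 70.1. C3AR1 was at 26.2 on day 2, between the 2 day 0 libraries, and at 7.83 on day 4.

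Days 2 and 4 had no replicate, and there was no test. The share of CR1L relative to CR1, which separated the replicates above, was 2.77% on day 2, inside the range of replicate 2, and 34.4% on day 4, next to that of replicate 1. Total FPKM was 790250 on day 2, inside the range of replicate 2 (739090 to 873610). On day 4 it was 997230, inside that of replicate 1 (943990 to 1082000). The number of rows above 0 was 20978 on day 2, just above the range of replicate 2 (20079 to 20775). On day 4 it was 22090, just below that of replicate 1 (22271 to 23265). AC006483.1 had the highest FPKM on day 4 and in every replicated library of replicate 1, but not on day 2 or in replicate 2. The labels do not tie the 2 time points to a day of the experiment, so that time and experiment cannot be told apart for them. The 15 listed markers of eosinophils, basophils and mast cells summed to 2273 on day 2, led by PRG2 at 1476, against 686 to 801 on day 0, 503 on day 4 and 190 to 270 on day 6. On day 2, 5 of the 15 reached 1. Their part in the day 2 levels was not tested.

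**Figure D4:**
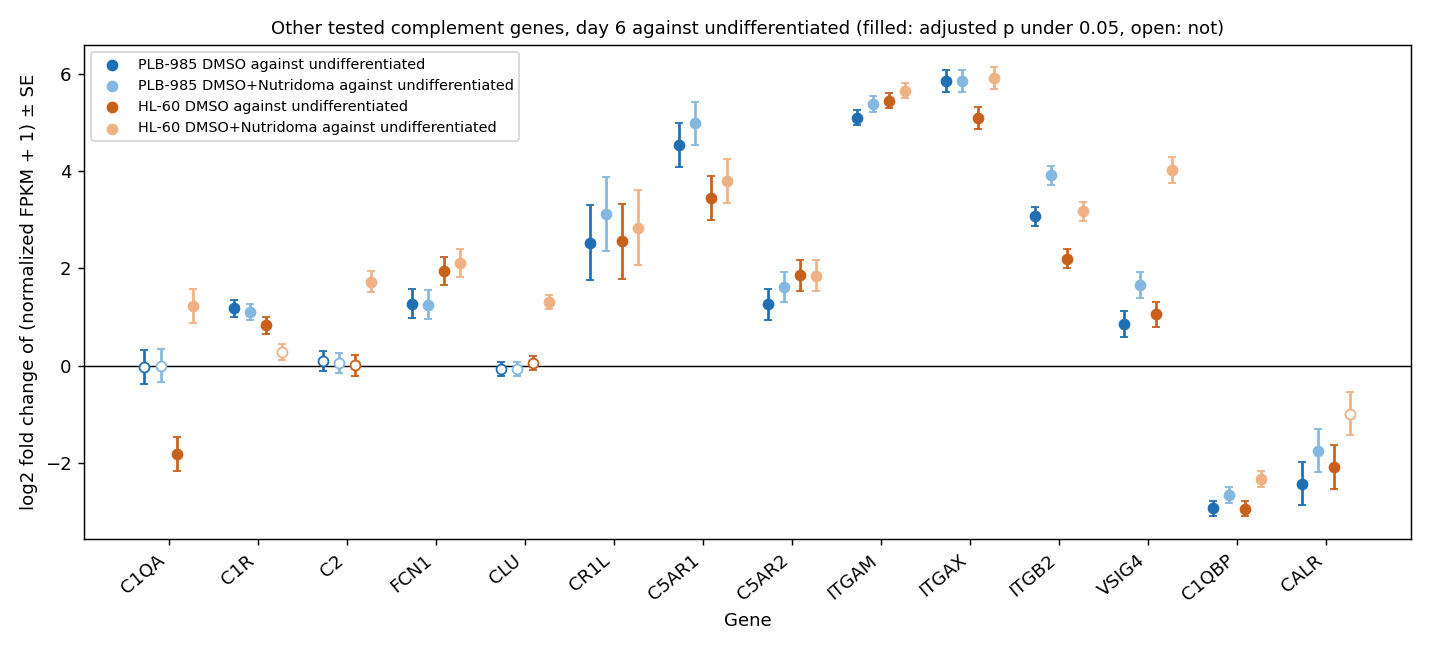
Log2 fold change of (normalized FPKM + 1) with its SE for the 14 other complement genes tested, day 6 against undifferentiated cells. Filled points passed an adjusted p of 0.05. ITGAM lay between 5.11 and 5.67 and C1QBP between -2.95 and -2.34 in the 4 comparisons.

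By role, 60 complement genes were listed, the 8 above among them, and 22 of the 60 passed the filter. Of the 14 that were tested besides the 8, 9 were called higher and 2 lower in PLB-985 given DMSO, 9 and 2 with DMSO+Nutridoma in PLB-985, 9 and 3 with DMSO in HL-60, and 11 and 1 with DMSO+Nutridoma in HL-60. Over all genes, 24% to 26% were called higher and 33.6% to 35.8% lower in these comparisons. ITGAM and ITGAX, the alpha chains of complement receptors 3 and 4, rose by a log2 of 5.11 to 5.67 and of 5.10 to 5.93 over the 4 comparisons, and ITGB2, their shared beta chain, by 2.202 to 3.92 (largest adjusted p = 5.17e-05 for the 3 genes). The receptors for C5a rose too, C5AR1 by 3.45 to 4.99 and C5AR2 by 1.27 to 1.86 (largest adjusted p = 0.00916). C3AR1, by contrast, fell with DMSO, and it was not called with DMSO+Nutridoma. The C5AR2 call in PLB-985 with DMSO was lost without DMSO replicate 2 (0.0747). C1QBP and CALR, mitochondrial and endoplasmic proteins that also bind C1q, fell with DMSO, with log2 changes of -2.95 in both lines for C1QBP (adjusted p = 6.76e-06 and 8.3e-06) and of -2.44 (0.00187) in PLB-985 and -2.09 (0.00412) in HL-60 for CALR.

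Few components of the cascade itself passed the filter, and since a 0 in these tables can be a failed estimate, the others are not shown to be absent. Of 16 genes of the classical and lectin pathways 4 were tested (C1QA, C1R, C2 and FCN1), of 12 soluble regulators 1 (CLU), and of 7 terminal components 0. The alternative pathway was thus represented by the 3 members, with CFB, the fourth gene of that list, at 0 to 0.381. FCN1, ficolin-1 of monocytes and granulocytes, rose by 1.25 to 2.12 in all 4 comparisons, and its PLB-985 calls were lost without undifferentiated replicate 1 (0.0534 with DMSO and 0.058 with DMSO+Nutridoma), the latter also without DMSO+Nutridoma replicate 1 (0.0646). In HL-60, 4 genes were called higher with DMSO+Nutridoma than with DMSO in every setting in which they were tested. They were C1QA, a chain of C1q (11.6 and 6.998 against 0.376 and 0.0485), C2 (4.48 and 2.24 against 0.403 and 0.155), CLU, clusterin (1.58 and 1.60 against 0.167 and 0), and VSIG4, a macrophage receptor for C3 fragments (29.2 and 24.1 against 2.46 and 2.53). Their log2 changes were 3.06 (adjusted p = 0.00231), 1.73 (0.003), 1.26 (0.00231) and 2.98 (0.000807). CLU reached 1 in no other group, so it passed the filter only through the group where it was high. Its calls as higher there are partly set by that filter, and a filter of 5 leaves it out. C1QA and VSIG4 are also on the monocyte and macrophage list above.

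The genes whose pattern was most like that of each member were found over all 14 libraries, as the 3 tested genes with the smallest root mean square difference in log2(normalized FPKM + 1) after each gene was centred on its own mean. For CR1 they were S100A12 (0.53), PAICS (0.57) and LRRC25 (0.58), where CR1 itself varied by 2.26 about its mean. PAICS was listed at 0 in all 4 undifferentiated libraries, although it is an enzyme of purine synthesis that dividing cells use, and a 0 in these tables can be a failed estimate. For CFP they were CD86, PILRA and CLEC4A (0.58 to 0.66, against 2.18 for CFP itself), and for C3 LAMB3, NLRP3 and NQO1 (0.54 to 0.74, against 1.40). For C3AR1 they were CCL5, DUSP2 and FRMD4B (0.68 to 0.75, against 1.48), and for CFD CYFIP2, STX10 and ABHD17AP5 (0.45 to 0.47, against 0.91). CD46 was nearest to EML2, PNPLA6 and HERC4 (0.12 to 0.15, against 0.53), CD55 to HHLA3, SERPINI1 and KLF5 (0.32 to 0.35, against 0.70) and CD59 to TM2D1, GSR and CD99 (0.20 to 0.21, against 0.48). No member was among the 3 nearest of another.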

How the data were processed

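PolyA RNA of 14 cultures was sequenced. The authors aligned single-end reads with STAR 2.4 to GRCh38.p5 with the GENCODE annotation and made 1 FPKM value per gene and library with Cufflinks 2.2.1 (bcl2fastq 2.17.1.14 for base calls). The authors then scaled the FPKM by 1 factor per library from uniformly expressed genes and deposited the log10 of that value plus 0.0001, with -4 for genes at 0. The deposited log10 values followed this formula to within 8.9e-16, with factors of 0.596 to 0.804. The study states a least number of reads per sample, but no counts are in the tables, so the depth behind each value is unknown, and an alignment or multi-mapping choice cannot be checked on them.

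The report uses FPKM times that factor. limma 3.58.1 in R 4.3.3 (lmFit, eBayes with a trend, two-sided) was run on log2(normalized FPKM + 1) of the 12 replicated libraries and 13778 rows with at least 1 normalized FPKM in 2 libraries, with terms for 6 groups and the replicate number (5 residual degrees of freedom), and Benjamini-Hochberg adjustment within each comparison. The replicate number pairs the libraries because the study repeated the experiment on 2 days, and the deviations of replicates from their group means had a Pearson r of 0.653 to 0.852 over the 15 pairs of groups. No 2 libraries held identical values. The fit was tested on simulated data.

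The 8 members and all lists were chosen with earlier results of these data known. Named besides the members are complement genes past the threshold in a differentiation comparison, the 2 largest and 2 smallest changes of the anchor list in PLB-985 with DMSO, the highest and the absent markers, and the 3 nearest genes of each member. CFB and the neighbours on chromosome 1 were added outside that rule. The comparison of the lines in the effect of Nutridoma, the sum of CR1 and CR1L and the alternatives for other complement genes were added after values were seen. Figures were drawn with matplotlib 3.10.9 in Python 3.11.15. Alternatives were no replicate term, no scaling by uniform genes, median-of-ratios scaling, added constants of 0.1 and 0.5, no filter, a filter of 5, a fit with no trend in the variance, only the libraries of the line or state compared, and each library left out. No member fell below the filter, so the permutation test planned for such a gene was not needed. The level of 1 listed marker gene is not reported here.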

Additional observations from a re-analysis of the deposited data

Results flagged for a closer look

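The responses of 2 genes differed between the lines by a test of the difference itself. For CFD, the change with DMSO+Nutridoma was larger in PLB-985 than in HL-60 by a log2 of 2.98 (SE 0.40, adjusted p = 0.00818 in limma), rising in both PLB-985 replicates and falling in both HL-60 replicates. For C3, it was smaller in PLB-985, by -2.17 (SE 0.41, adjusted p = 0.0286). C3 rose in both HL-60 replicates, by 4.02 and 7.93 times, and was at 1.46 and 0.869 times its undifferentiated level in the PLB-985 replicates. Without the replicate term neither passed (0.166 for CFD and 0.154 for C3). CFD passed with any library left out, whereas C3 was lost without the filter (0.0753) and with any 1 of 9 of the 12 libraries left out (0.0508 to 0.129). The line cannot be told apart from the H2B-mCherry reporter.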

How the results depend on the processing

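Of 840 recomputed log2 changes of the 8 genes under other settings, 810 kept their direction where called and their side of the threshold, 17 lost a call and 13 gained one. Of 1152 with 1 library left out, 1089 did, 41 lost a call and 22 gained one. No called change turned its direction, and 11 and 42 uncalled ones changed sign. Without the replicate block, called members fell from 2 to 1 in HL-60 DMSO+Nutridoma against DMSO, from 2 to 0 between the lines with DMSO, and from 2 to 0 for the line difference in the DMSO+Nutridoma response. Without the filter they fell from 5 to 3 in PLB-985 with DMSO+Nutridoma, from 2 to 0 in HL-60 DMSO+Nutridoma against DMSO and from 2 to 1 for that line difference. With the line or state alone they went from 0 to 2 in PLB-985 DMSO+Nutridoma against DMSO, from 2 to 1 in HL-60, and from 2 to 5 between the lines with DMSO. PLB-985 DMSO+Nutridoma against DMSO also had 1 with FPKM not scaled by uniform genes and 1 with each added constant. In other comparisons a single call was lost or gained under some of the settings, as given with each gene above. The causes were not tested.

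With 1 library left out, called members ranged from 5 to 6 and 3 to 6 (PLB-985 with DMSO and DMSO+Nutridoma), 4 to 6 and 6 to 7 (HL-60), 0 to 2 and 0 to 3 (DMSO+Nutridoma against DMSO in PLB-985 and HL-60), 1 to 4, 0 to 2 and 3 to 5 (between lines, undifferentiated, DMSO, DMSO+Nutridoma), and 0 to 1, 1 to 2 and 0 to 2 (line differences for DMSO, DMSO+Nutridoma and the effect of Nutridoma).

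Over all genes, calls without the replicate block went from 145 to 70 and from 2269 to 839 (DMSO+Nutridoma against DMSO, PLB-985 and HL-60), from 1947 to 1145, 1428 to 801 and 3298 to 1823 (between lines), and from 180 to 114, 578 to 272 and 71 to 35 (line differences). With the line or state alone they were 360, 256, 3688 (DMSO) and 1917 (DMSO+Nutridoma). Without the filter they were 1466 in HL-60 between protocols, and 325 and 134 for the line differences in DMSO and Nutridoma effect, which with a filter of 5 were 89 and 26, and with a constant of 0.1 were 77 and 11. The line difference for DMSO+Nutridoma was 368 with a filter of 5. With FPKM not scaled by uniform genes, the share of calls that were higher went from 59.9% to 43.4% in HL-60 between protocols and from 46.7% to 63.5% between lines with DMSO+Nutridoma, and the median log2 change of all genes from -0.147 to -0.0254 and -0.157 to -0.00518 in PLB-985 and from -0.112 to 0.0314 in HL-60 with DMSO. Of the other complement and anchor genes, 35 of 942 values lost a call under other settings, CR1L in all 4 differentiation comparisons without the replicate block (0.117 to 0.194).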

Other observations

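CR1L was a larger share of the CR1 level in replicate 1 than in replicate 2 in all 6 groups. In PLB-985 DMSO cultures CR1L was at 15.5 in replicate 1 and 1.80 in replicate 2, with CR1 at 49.4 and 66.7. In HL-60 with DMSO+Nutridoma it was at 25.8 and 1.87, with CR1 at 75.6 and 57.8. In undifferentiated cells, where CR1 was at 0.452 to 2.60, CR1L was at 14.4% and 2.77% of CR1 in PLB-985 replicates 1 and 2 and at 72.5% and 13.8% in HL-60. What set this share was not tested.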
